A study of Mus musculus with 6 samples.

Results

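The genes of MHC class I antigen presentation were examined in RNAseq data of J110 and SSM3 cells. The 10 genes are B2m, H2-K1 and H2-D1 (the class I complex itself), Tap1, Tap2 and Tapbp (peptide transport and loading), Psmb8, Psmb9 and Psmb10 (the immunoproteasome) and Nlrc5 (a transcription regulator of these genes). They were chosen by name from a table of 52636 genes, when the difference between the lines was already known, so their own levels and fold changes are given as a description, without a p-value. J110 is a mammary tumour line from mice with an AIB1 cDNA transgene driven by the MMTV LTR, a promoter active in mammary epithelium. SSM3 is a mammary tumour line from genetically altered 129SvEv mice. There were 3 biological replicates of each line, with no treatment given, and each genotype is represented by a single line. The lines were also grown in media that differed in serum, supplements and CO2, so line, strain and culture cannot be told apart.

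Nearly every nucleated cell shows peptides from its own proteins on MHC class I molecules, which CD8 T cells inspect. Proteins are cut by the proteasome, in which interferon-induced catalytic subunits can replace the constitutive ones, and the peptides are carried into the endoplasmic reticulum by the TAP transporter. There they are loaded onto a polymorphic heavy chain, H2-K or H2-D in the mouse, which is held together by β2-microglobulin. Most of these genes are induced by interferons, and NLRC5 is known to switch on class I genes as a set. Tumour cells often lower this pathway, so its level is of interest in syngeneic models, whose hosts have an intact immune system.

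Libraries were sequenced from the 3′ ends of transcripts, and total counts ranged from 4200785 to 5416305. Values are given as counts, or as CPM, which are counts per 1000000 counts of the library after TMM scaling. Which line a library belongs to was taken from its label alone. Among 8 epithelial markers, Krt8 and Krt18 were abundant in both lines, whereas Epcam was at 507 CPM in SSM3 and 0.681 CPM in J110. Krt7 was at 408 CPM in J110 against 1005 CPM, Krt19 was at 18.6 against 7412 CPM, Cdh1 at 4.02 against 1374 CPM, and Cldn3 and Cldn4 were near 0 in J110. The epithelial markers of J110 were thus in part very low, though none was at or under 3 counts in all its libraries. The endothelial gene Cdh5 stood at 165 CPM in that line. One library stood apart. Of 9679 genes with at least 5 CPM on average in SSM3 whose other 2 libraries lay within 0.7 of each other on the log2(CPM + 1) scale, 115 differed by more than 1 in SSM3 replicate 3, and 113 of them were lower there. In the other 5 libraries between 5 and 14 genes did so. Results that rest on SSM3 replicate 3 are therefore given with and without it.

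The sequences before a RefSeq start of 5 genes are shown. They set 4 genes whose windows share kinds of match (B2m, H2-K1, H2-D1 and Tap1) beside Psmb8, the gene with the largest fold change. The Psmb8 window used here held none of the shared kinds. RefSeq windows on GRCm38.p6 (mm10) were found for 8 of the 10 genes, and the 250 bases before the annotated start are printed 5′ to 3′ on the gene's strand. Capitals mark matches, on either strand, to the interferon-stimulated response element (ISRE) core GAAANNGAAA, a shorter form of it, GAANNGAAA, the STAT-binding GAS core TTCNNNGAA, the CCAAT box, the CREB and ATF core site TGACG and the NF-kB consensus. The windows are chr2:122147437-122147686 (forward) for B2m, chr17:34000334-34000583 (reverse) for H2-K1, chr17:35262844-35263093 (forward) for H2-D1, chr17:34187306-34187555 (forward) for Tap1 and chr17:34197945-34198194 (forward) for Psmb8.
B2m: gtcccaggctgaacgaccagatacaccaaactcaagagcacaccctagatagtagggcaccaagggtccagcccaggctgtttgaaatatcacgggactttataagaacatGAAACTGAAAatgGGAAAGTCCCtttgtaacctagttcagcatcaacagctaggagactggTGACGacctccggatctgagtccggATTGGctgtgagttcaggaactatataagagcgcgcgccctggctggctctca
H2-K1: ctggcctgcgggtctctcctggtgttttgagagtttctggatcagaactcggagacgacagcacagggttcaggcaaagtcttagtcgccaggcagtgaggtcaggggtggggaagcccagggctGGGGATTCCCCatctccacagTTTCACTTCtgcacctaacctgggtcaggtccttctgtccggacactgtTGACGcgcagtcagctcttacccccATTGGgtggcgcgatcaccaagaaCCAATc
H2-D1: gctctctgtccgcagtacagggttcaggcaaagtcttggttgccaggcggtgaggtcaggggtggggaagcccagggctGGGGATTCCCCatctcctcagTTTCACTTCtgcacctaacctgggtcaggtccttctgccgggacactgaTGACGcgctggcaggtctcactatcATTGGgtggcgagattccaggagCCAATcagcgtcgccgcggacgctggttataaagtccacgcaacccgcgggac
Tap1: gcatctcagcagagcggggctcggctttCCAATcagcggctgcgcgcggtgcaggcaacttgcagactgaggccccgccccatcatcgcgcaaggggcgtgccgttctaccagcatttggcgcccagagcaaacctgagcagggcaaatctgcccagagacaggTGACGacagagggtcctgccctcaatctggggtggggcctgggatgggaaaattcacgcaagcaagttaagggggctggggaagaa
Psmb8: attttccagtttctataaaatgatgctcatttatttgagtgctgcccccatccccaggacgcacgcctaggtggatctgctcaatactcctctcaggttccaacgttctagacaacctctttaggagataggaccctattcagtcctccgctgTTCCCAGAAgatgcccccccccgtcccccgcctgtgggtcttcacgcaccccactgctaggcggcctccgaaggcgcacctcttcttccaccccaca

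The windows of H2-K1 and H2-D1 were 87.2% identical over 203 aligned bases and held the same kinds of match, an NF-kB consensus found at 2 overlapping places, the short ISRE form, the CREB core and 2 CCAAT boxes. RefSeq gives H2-K1 a second start, and its window, chr17:34000348-34000597 (reverse), which is not printed, held the same matches with 1 CCAAT box in place of 2. B2m held the ISRE core, the NF-kB consensus, the CREB core and a CCAAT box. The window of Tap1 shares 225 bases with that of Psmb9, which lies head to head with it on the other strand, and both held the CREB core and a CCAAT box. Psmb8 held a GAS core and Tapbp 2 CCAAT boxes, and Psmb10 held none of the 6. Among all 32851 windows of this length, 2.98% held the ISRE core, 6.31% its short form, 7.02% the GAS core, 33.8% a CCAAT box, 17.8% the CREB core and 7.25% the NF-kB consensus. A match describes letters only, and says nothing about whether a factor binds there. RefSeq and GENCODE place some starts differently. The windows of H2-D1, Tapbp, Psmb8 and Psmb9 lie inside the gene spans given below, which for Psmb8 begins at 34197721. The bases before those GENCODE starts were not searched, so a match there would have been missed.

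All 10 genes had a higher mean level in SSM3 than in J110. In bulk RNA, fewer cells that express a gene and less RNA per cell cannot be told apart. The log2 fold changes ran from 0.41 for H2-D1 to 7.59 for Psmb8 with a median of 3.11, where the median over all 12284 genes tested was -0.014 and the middle 50% of genes lay between -0.87 and 0.81. In edgeR's fit across all genes 10 of 10 passed an adjusted p of 0.05 in the quasi-likelihood test with a higher level in SSM3, as 38.6% of all genes tested did. In either direction 77.9% of all genes passed, and nothing is read from the members' count, since the choice of members used this contrast. For 8 of the 10 every SSM3 library was above every J110 library, as it was for 39.4% of all genes. H2-D1 and Tap2 were the exceptions, and both lost their call with DESeq2. All 10 passed the filter on low counts, but Psmb8, Psmb9 and Nlrc5 did so only through SSM3.

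**Figure D1:**
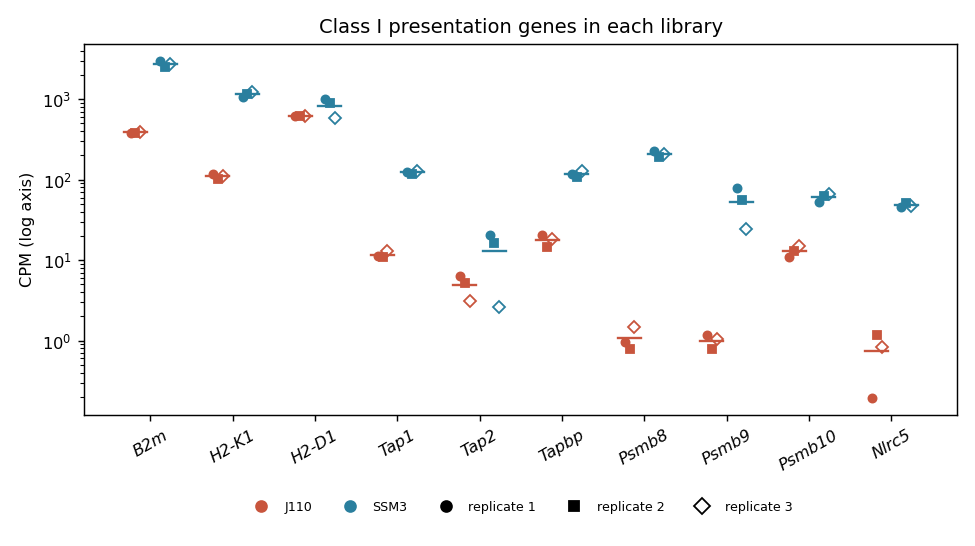
CPM of the 10 class I presentation genes in each library, on a log axis, with J110 in red, SSM3 in blue and a bar at each mean (n = 3). All SSM3 points lie above all J110 points except in H2-D1 and Tap2, where SSM3 replicate 3 (open diamond) falls to 580.4 and 2.59 CPM.

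B2m encodes β2-microglobulin, the invariant light chain without which class I molecules do not reach the surface (ENSMUSG00000060802, chromosome 2 of mm10 from 122147686 to 122153083, forward strand). It was counted at 382, 384 and 392 CPM in J110 and at 3004, 2551 and 2745 CPM in SSM3. The SSM3 libraries were all high and the lines were far apart, with a log2 fold change (SSM3 over J110) of 2.84 and a standard error (SE) of 0.077. None of the 75-base stretches in the last 500 bases of its transcripts occurred in another gene, and no exon was shared.

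H2-K1 encodes the heavy chain of H2-K, a classical class I molecule (ENSMUSG00000061232, chromosome 17 from 33996017 to 34000347, reverse strand). It had 118, 103 and 110.2 CPM in J110 and 1054, 1175 and 1218 CPM in SSM3. No library of either line came near the other line, and the log2 fold change was 3.38 (SE 0.083). H2-D1, the other classical heavy chain, lies at the far end of the H2 locus (ENSMUSG00000073411, chromosome 17 from 35262730 to 35267499, forward strand). Its values were 624, 627 and 616 CPM in J110 and 1011, 898 and 580.4 CPM in SSM3. SSM3 replicates 1 and 2 were above J110, while SSM3 replicate 3 was below all 3 J110 libraries. For H2-D1 this gave a log2 fold change of 0.41 (SE 0.13), 0.62 without SSM3 replicate 3, 0.25 without SSM3 replicate 1 and 0.36 without SSM3 replicate 2, and the last 2 of these no longer passed the threshold. The counts of H2-K1 and H2-D1 thus differed in how far SSM3 exceeded J110.

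**Figure D2:**
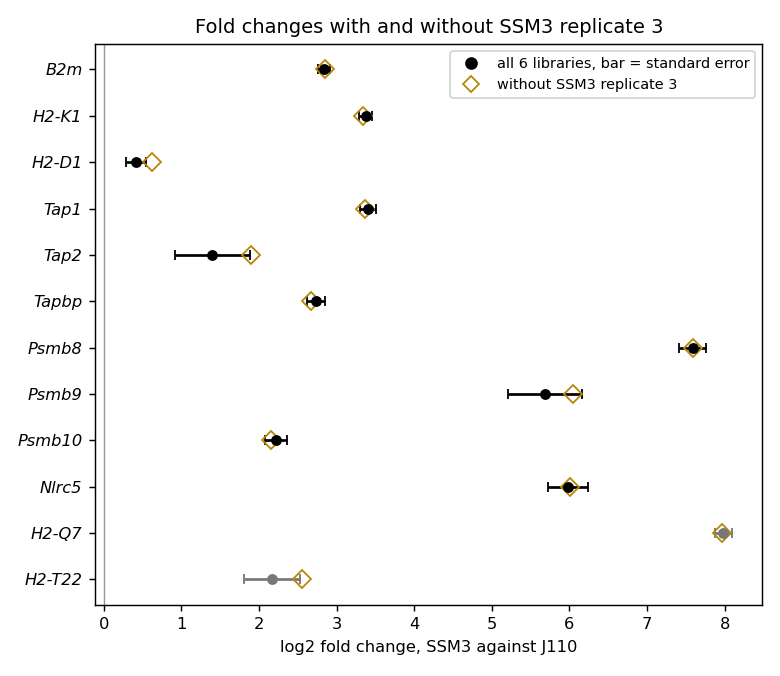
Log2 fold changes, SSM3 against J110, of the 10 genes (black) and of H2-Q7 and H2-T22 (grey), with standard errors from the fit across all genes (3 libraries a line). Open diamonds give the value without SSM3 replicate 3, which moves Tap2 from 1.40 to 1.90, Psmb9 from 5.69 to 6.04 and H2-D1 from 0.41 to 0.62, and the other members by less.

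Reads from the H2 locus can be assigned to the wrong gene, since its heavy chains resemble one another and differ between mouse strains. The reads were mapped to mm10, which is the sequence of C57BL/6J, while SSM3 came from 129SvEv mice and the strain of J110 is not given in the sources used here. Whether J110 carries H2 alleles that map less well was not tested. In the reference itself, 4.31% of the 75-base stretches at the transcript ends of H2-K1 and 10.4% of those of H2-D1 also occurred in other genes, mostly of the H2 family. Counts on the other heavy chains were therefore examined beside them.

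Of 23 other class I and class I-like chains, 9 could be tested and 9 others had at most 3 counts, the floor used here, in every library. Of those tested, 6 were higher and 3 lower in SSM3, beside 38.6% and 39.2% of all genes. H2-Q7, a Qa-2 type non-classical heavy chain, had 19, 28 and 23 counts in J110 and 5263, 5539 and 6074 in SSM3. Its log2 fold change was 7.98 (SE 0.11, edgeR adjusted p = 3.57e-17), where the highest of the 10 genes was at 7.59. Other Q region genes with counts were also higher in SSM3. Neither H2-Q6 nor H2-Q2 rose above the floor in J110, and SSM3 exceeded it at least 48.3-fold and 22.8-fold. H2-Q4 had 4, 7 and 6 counts in J110 and 75, 80 and 92 in SSM3 (log2 fold change 3.91, SE 0.27). H2-Q2, H2-Q4, H2-Q6 and Mr1 passed the filter on low counts only through SSM3, where they are high. At the transcript ends of H2-Q6, 39.8% of the 75-base stretches were shared, most with H2-Q7, so its counts are uncertain. Mr1, which presents microbial metabolites, was higher in SSM3 at 7.20 against 0.526 CPM.

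The T and M region genes were divided. H2-T22, a non-classical chain recognised by γδ T cells, had 76, 40 and 50 counts in J110 and 347, 250 and 100 in SSM3, a 4.55-fold ratio of mean CPM (edgeR adjusted p = 3.75e-05). The lowest SSM3 value was again that of replicate 3, without which its log2 fold change was 2.56. The remaining 3 chains were lower in SSM3, and passed the filter on low counts only through J110, where they are high. H2-T23, which encodes Qa-1, fell from 6.82 to 1.67 CPM, H2-T10 from 10.7 to 1.35 CPM and H2-M3, which presents formylated peptides, from 5.73 to 1.27 CPM, with log2 fold changes of -2.00, -2.98 and -2.15. The value of H2-M3 was -2.91 without SSM3 replicate 2, which had 11 counts against 3 and 4 in the others. H2-T10 shares 32.8% of its 75-base stretches, most with H2-T22, and H2-T22 shares 33.8%, most with H2-T10, so the counts of both are uncertain. BC023719 had nearly the same counts as H2-T10 in J110 (55, 53 and 43 against 58, 56 and 47). Counts on A930015D03Rik likewise followed those on H2-T22 (71, 39 and 50 in J110, 291, 212 and 95 in SSM3). BC023719 and A930015D03Rik are annotated as antisense genes, and their spans overlap those of H2-T10 and H2-T22. Whether the same reads were counted on both strands was not tested.

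Counts were summed over all 31 H2-K, H2-D, H2-Q, H2-T and H2-M genes. For a read counted once among them, the sum does not depend on which gene took the read. The sum was 789, 772 and 766 CPM in J110 and 3395, 3367 and 3095 CPM in SSM3. All SSM3 sums were above all J110 sums, and the ratio of the means was 4.23. In J110, H2-D1 took from 79.1% to 81.2% of these counts and H2-K1 from 13.4% to 15.0%. In SSM3 the shares were 18.8% to 29.8% for H2-D1, 31.1% to 39.4% for H2-K1 and 34.5% to 39.1% for H2-Q7. Most heavy chain counts of J110 thus fell on H2-D1, and those of SSM3 were spread over 3 genes. Reads that did not map to mm10, or that were assigned to genes outside the 31, are in none of these sums. Whether reads that match several places were counted, and how often, was not tested.

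**Figure D3:**
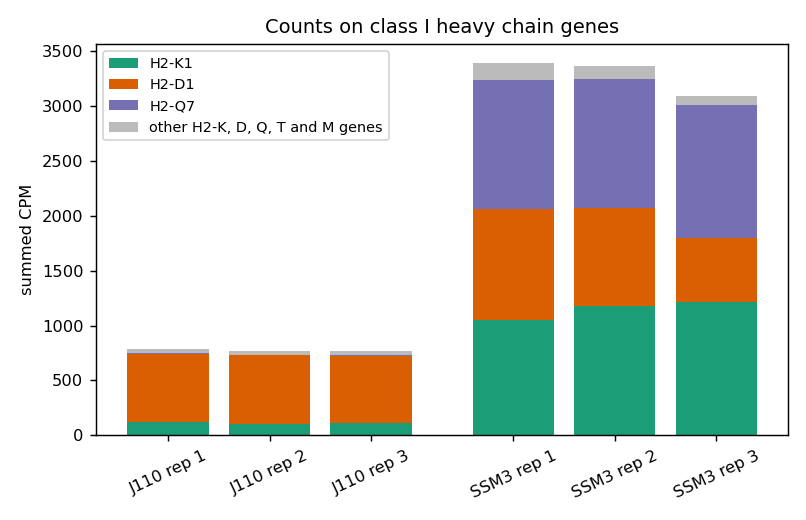
CPM summed over the 31 H2-K, H2-D, H2-Q, H2-T and H2-M genes in each library, stacked as H2-K1, H2-D1, H2-Q7 and the rest. The J110 bars are near 776 CPM and mostly H2-D1, and the SSM3 bars lie between 3095 and 3395 CPM with 3 main parts, of which H2-D1 is smallest in replicate 3.

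Tap1 encodes one chain of the peptide transporter (ENSMUSG00000037321, chromosome 17 from 34187553 to 34197225, forward strand). It was counted at 11.2, 11.1 and 12.9 CPM in J110 and 123, 119 and 129.5 CPM in SSM3. All SSM3 libraries were high, and the log2 fold change was 3.40 (SE 0.11). Tap2, the other chain of the same transporter (ENSMUSG00000024339, chromosome 17 from 34203527 to 34216321, forward strand), did not follow it. Tap2 was counted 33, 26 and 15 times in J110 and 92, 77 and 13 times in SSM3. SSM3 replicates 1 and 2 were above J110 and SSM3 replicate 3 had the lowest count of all 6 libraries. Its log2 fold change was 1.40 (SE 0.48) with all libraries and 1.90 without SSM3 replicate 3. The call was lost without SSM3 replicate 1 (0.93), SSM3 replicate 2 (1.20), J110 replicate 2 (1.42) or J110 replicate 3 (1.16), and with limma-voom, which gave 0.95. Exons of Tap2 overlap those of Gm15821 and Gm20496 on the opposite strand, of which Gm15821 had 2 counts in all, both in SSM3 replicate 3, and Gm20496 had none.

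Tapbp encodes tapasin, which bridges TAP and the empty class I molecule (ENSMUSG00000024308, chromosome 17 from 33915899 to 33929292, forward strand). Its level was 20.2, 14.6 and 18.2 CPM in J110 and 116.7, 109.4 and 128 CPM in SSM3, with no overlap and a log2 fold change of 2.74 (SE 0.12). Gm19412, on the opposite strand, shares 24.9% of the exon bases of Tapbp, and Zbtb22, on the same strand, 4.11%. Both moved less, with log2 fold changes of 0.59 and 0.42, against 2.74 for Tapbp. In J110, however, Gm19412 had 70, 77 and 64 counts and Zbtb22 had 131, 126 and 112, against 105, 74 and 87 for Tapbp. How many reads were counted on more than 1 of these genes was not tested.

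Psmb8, which encodes the β5i catalytic subunit (LMP7), showed the widest gap (ENSMUSG00000024338, chromosome 17 from 34197721 to 34201454, forward strand). Its J110 counts were 5, 4 and 7 and its SSM3 counts 1033, 890 and 1057, which is 1.07 ± 0.348 against 209.8 ± 20.5 CPM (SD, n = 3 each). The line means differed 195.7-fold, with a log2 fold change of 7.59 (SE 0.17). Psmb9, which encodes β1i (LMP2) and shares its promoter region with Tap1 (ENSMUSG00000096727, chromosome 17 from 34181987 to 34187764, reverse strand), was counted 6, 4 and 5 times in J110 and 351, 267 and 121 times in SSM3. All SSM3 values were above J110, with that of SSM3 replicate 3 the lowest of the 3, and the log2 fold change was 5.69 (SE 0.47), or 6.04 without that library. Psmb10, which encodes β2i (MECL-1) and lies on another chromosome (ENSMUSG00000031897, chromosome 8 from 105935735 to 105938444, reverse strand), was counted 56, 66 and 72 times in J110 and 237, 292 and 331 times in SSM3. It differed least of the 3, with a log2 fold change of 2.22 (SE 0.14), and unlike the others it was well above the floor in J110.

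The low J110 counts of these genes were set beside those of epithelial genes that mark SSM3. As a percent of the SSM3 mean, the J110 mean was 0.511% for Psmb8, 1.88% for Psmb9 and 1.54% for Nlrc5. It was 0.135% for Epcam, 0.145% for Cldn4, 0.166% for Cldn3, 0.251% for Krt19 and 0.293% for Cdh1. In J110 replicate 3 these epithelial genes ran from 0.288% to 0.425%, against 0.696% for Psmb8. Whether RNA of the other line adds to the J110 counts was not tested.

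In the immunoproteasome each induced subunit takes the place of a constitutive one, β5i of β5 (Psmb5), β1i of β1 (Psmb6) and β2i of β2 (Psmb7). The constitutive genes were themselves higher in SSM3, with log2 fold changes of 1.21, 1.12 and 1.18 (SE 0.071, 0.076 and 0.078, edgeR adjusted p = 1.33e-10, 8.28e-10 and 6.66e-10). On the log2 scale, the ratio of Psmb8 to Psmb5 counts was -7.19 ± 0.39 in J110 and -0.74 ± 0.13 in SSM3 (SD, n = 3 each), a difference of 6.45. For Psmb9 to Psmb6 it was -7.06 ± 0.24 and -2.59 ± 0.92, a difference of 4.47, or 4.99 without SSM3 replicate 3. For Psmb10 to Psmb7 the values were -3.32 ± 0.27 and -2.27 ± 0.27, a difference of 1.05. In all 3 pairs every SSM3 library had a higher ratio than every J110 library. These ratios compare the lines and not the amounts of the subunits, since how well the 3′ end of each gene is captured and mapped was not measured.

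The other proteasome genes listed went in the same direction, with 7 of 7 tested higher in SSM3 (38.6% of all genes). Pomp, the maturation factor that assembles the catalytic core, rose most, from 311 to 1419 CPM (log2 fold change 2.19, SE 0.072, edgeR adjusted p = 8.03e-14). Psme1 and Psme2, the subunits of the interferon-inducible PA28 activator, had log2 fold changes of 0.82 and 1.68. Psmb11, the subunit of the thymus, was at the floor in both lines.

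Nlrc5 (ENSMUSG00000074151, chromosome 8 from 94434356 to 94527272, forward strand) was counted 1, 6 and 4 times in the J110 libraries and 206, 240 and 235 times in those of SSM3. The SSM3 libraries were all within a narrow range and none of the J110 libraries had more than 6 counts. The log2 fold change was 5.98 (SE 0.25), and from 5.51 to 6.50 when each library was left out in turn. The antisense gene 9330175E14Rik, which shares 0.918% of the exon bases of Nlrc5, had 18, 15 and 15 counts in SSM3. NLRC5 acts with the RFX factors, and Rfx5 was higher in SSM3 at 21.0 against 4.71 CPM (log2 fold change 2.15, SE 0.18, edgeR adjusted p = 1.60e-08). Its partner Rfxank also rose, by 1.37 on the log2 scale.

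Of 21 transcription regulators of class I genes, 20 were tested, with 12 higher and 6 lower in SSM3 (38.6% and 39.2% of all genes). Those that rose included Stat2 from 5.22 to 31.9 CPM and Irf9 from 11.6 to 59.0 CPM, which act together in the interferon response, with log2 fold changes of 2.61 (SE 0.19, edgeR adjusted p = 2.70e-09) and 2.35 (SE 0.13, edgeR adjusted p = 5.40e-11). Irf1, a direct activator of class I and immunoproteasome genes, rose from 19.98 to 85.3 CPM, and Stat3 from 43.7 to 286 CPM. The 6 that fell held silencers and activators. Ezh2, Eed and Suz12, the core of the PRC2 complex that is known to silence class I genes in tumours, fell by 0.66, 0.69 and 0.36 on the log2 scale, the last of which did not pass without TMM scaling. Creb1, which binds the CREB core, fell by 0.68. The NF-Y genes, whose product binds the CCAAT box, went both ways, as Nfyb fell by 0.74 and Nfyc rose by 1.09, and so did the NF-kB genes, as Nfkb1 fell by 0.86 and Rela rose by 1.13. Irf2 and Nfya did not pass the threshold, with log2 fold changes of -0.011 and -0.053.

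Of the interferon receptors and their signalling genes, 2 of the 9 tested were higher and 4 lower in SSM3, beside 38.6% and 39.2% of all genes. Ifngr1, the ligand-binding chain of the interferon γ receptor, had 158, 185 and 117 counts in J110 and 22, 24 and 21 in SSM3 (log2 fold change -2.69, SE 0.20, edgeR adjusted p = 2.91e-09). Jak2, the kinase bound to the other chain, had 160, 165 and 156 counts in J110 and 1669, 1965 and 1971 in SSM3 (log2 fold change 3.62, SE 0.086, edgeR adjusted p = 1.53e-15). Socs1, a feedback inhibitor of JAK kinases that interferons induce, fell by 2.61 on the log2 scale, with 22, 20 and 18 counts in J110 and 2, 2 and 5 in SSM3, so that it passed the filter only through J110. Socs3 rose by 1.84. Jak1 and Ifnar1 fell by 0.83 and 1.37. No count was found on Ifng, Ifnb1 or Ifne in any library, which at these depths allows up to 0.668 CPM in a library, counting error only.

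Genes of the same pathway with general roles in protein folding and peptide trimming were divided. Of the peptide loading and folding genes, Canx and Pdia3 fell by 0.52 and 0.76 on the log2 scale and Uggt1 rose by 0.61. Calr and Hspa5 passed with log2 fold changes of 0.21 and 0.16, a call that Calr lost without J110 replicate 2 (0.18) and that Hspa5 kept only without SSM3 replicate 3 (0.19) among the single-library omissions. Tapbpl, a relative of tapasin that edits peptides, did not pass (-0.05, SE 0.21). Of the 6 trimming enzymes, 4 fell. Erap1, the aminopeptidase that shortens peptides in the endoplasmic reticulum, fell by 0.88 on the log2 scale (SE 0.089, edgeR adjusted p = 1.32e-07) and the cytosolic enzymes Tpp2 and Npepps by 1.66 and 0.47. Blmh rose by 0.87, and Lap3 did not pass, with a log2 fold change of -0.13 that turned to 0.048 without TMM scaling. Over all 7 lists beside the 10 genes, 33 of the 59 genes tested were higher and 19 lower in SSM3, with a median log2 fold change of 0.39, against 38.6% higher and 39.2% lower among all genes.

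Class II presentation is the pathway of professional antigen-presenting cells. Of its 12 genes, 9 were at the floor in both lines, among them H2-Aa, H2-Ab1, H2-Eb1, Cd74 and the class II regulator Ciita, and H2-DMb2 had at most 4 counts in a library. The 2 that were tested, H2-DMa and H2-DMb1, both chaperones of peptide exchange, did not exceed the floor in J110, and their SSM3 levels were higher by at least 5.42-fold and 25.9-fold. H2-DMb1, with 71, 65 and 85 counts in SSM3, held most of the summed class II level there, which was 16.8 to 21.5 CPM, against 0.593 to 1.35 CPM in J110. Markers of other cell types were counted too. Of 16 leukocyte markers, 12 were at the floor in both lines, including Ptprc (CD45), Cd3e and Itgam, and the summed level of all 16 was 34.4 to 46.9 CPM in J110 and 19.1 to 26.3 CPM in SSM3. The counts that were present fell mostly on Csf1r, at 14.3 CPM in J110 against 14.2 CPM, and on Cd14, at 23.5 against 8.25 CPM, and Lyz2 had 6, 10 and 0 counts in J110 and none in SSM3. The part of such cells in the class I levels was not tested. Fibroblast markers summed to at most 1.98 CPM in any library, and of the 4 endothelial markers only Cdh5 was tested, at 165 CPM in J110 and at the floor in SSM3. In J110, Kdr had 8, 11 and 6 counts and Pecam1 3, 0 and 4, and the fibroblast genes Col1a1, Col3a1 and Pdgfra had at most 6 counts in a library there.

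The genes of the pathway lie close together, and 6 of the 10 are within the interval from H2-K1 to H2-D1, with Tapbp just outside it. The interval spans 1271 kb of chromosome 17 (33996017 to 35267499) and holds 116 counted genes of other function, of which 44 were tested. Of these neighbours, 27 were higher in SSM3, 9 were lower and 8 did not pass, with a median log2 fold change of 0.50. The share higher was 61.4%, against 38.6% of all genes, but some neighbours overlap and repeat each other's counts, such as Gm20427 with H2-Ke6 and Slc39a7, and Gm20463 with Rnf5. The fitted log2 fold change was at least 2 for 4 neighbours, Gpsm3, Ly6g6c, Ly6g6d and Lst1, and at most -2 for Hspa1a, Hspa1b and Notch4, all named after their values were seen. The first 4 passed the filter on low counts only through SSM3 and the other 3 only through J110, and where a line was at the floor, as J110 was for Gpsm3, Ly6g6c and Ly6g6d and SSM3 for Hspa1a, the fitted value depends on the prior count and is no bound. Psmb8 and Tap2, which lie side by side, had log2 fold changes of 7.59 and 1.40, the second of which ranged from 0.93 to 1.90 when single libraries were left out.

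**Figure D4:**
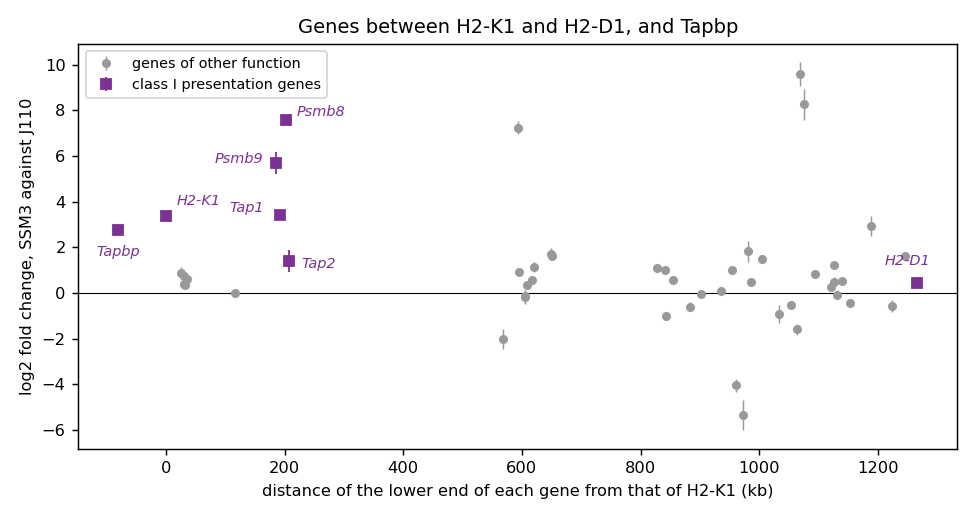
Log2 fold change, SSM3 against J110, of the genes tested between H2-K1 and H2-D1 and of Tapbp, by distance in kb from the lower end of H2-K1, with standard errors (3 libraries a line). Class I presentation genes (squares) lie between 0.41 and 7.59, and the 44 genes of other function (grey) scatter around a median of 0.50, with the values of genes at the floor in a line set in part by the prior count.

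Within SSM3 the 10 genes did not vary together. In replicate 3, set against the mean of the other 2 libraries on the log2(CPM + 1) scale, Tap2 deviated by -2.43, Psmb9 by -1.43 and H2-D1 by -0.71, and H2-T22 by -1.64. The other 7 members lay between -0.05 and 0.20, so that Psmb9 parted from Tap1, with which it shares a promoter region, and Tap2 from Psmb8 beside it. For Tap2, only 0.0827% of 9679 genes were as low or lower in this library, and 0.506% for Psmb9. Over all genes compared, 1.17% were lower by more than 1 in this library. Among the neighbours in the interval 2 of 36 were, Rnf5 and Gm20463, whose counts were nearly the same in every library. In J110 the deviations of the 10 genes, measured the same way, ran from -0.75 to 0.56. What set SSM3 replicate 3 apart was not tested.

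**Figure D5:**
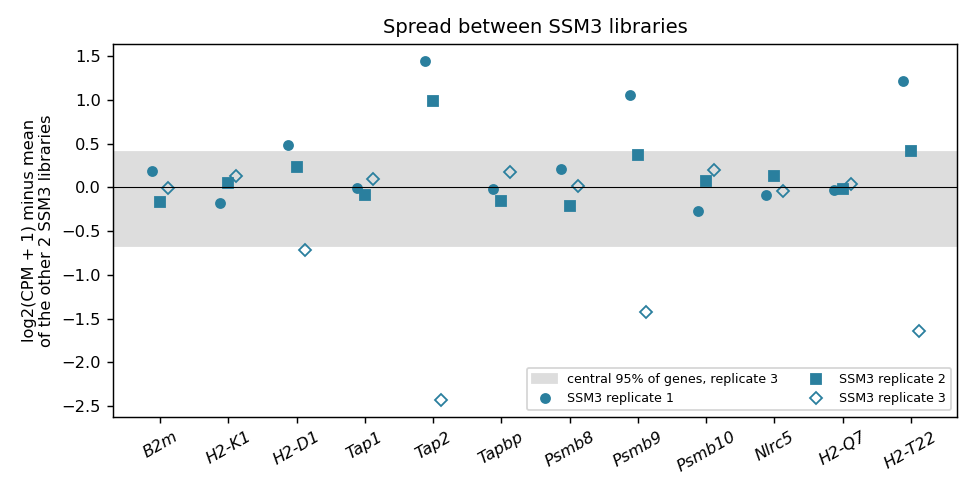
For each SSM3 library, log2(CPM + 1) of a gene minus the mean of the other 2 SSM3 libraries, for the 10 genes, H2-Q7 and H2-T22. The grey band, from -0.67 to 0.41, holds the central 95% of genes in replicate 3, and Tap2, Psmb9, H2-T22 and H2-D1 fall below it while the rest lie within it.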

How the data were processed

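RNA of 3 biological replicates of each line was made into QuantSeq 3′ libraries and sequenced as 75 bp single end reads. According to the methods and the submitters' processing notes, reads were demultiplexed with bcl2fastq 2.17.1.14, trimmed with cutadapt 2.1, mapped to mm10 with HISAT2 2.0.4 and assigned to genes with featureCounts of Subread 2.0.0. The authors deposited these values as raw counts per Ensembl gene, and the strand setting is not given in the sources used here. Of 52636 genes, 99.7% matched the GENCODE names used.

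Counts were tested with edgeR 4.0.16 (filterByExpr, TMM, quasi-likelihood test) in R 4.3.3, with Benjamini-Hochberg adjustment over 12284 genes and a threshold of 0.05. CPM were scaled by TMM. The floor was set at 3 counts per library (0.578 to 0.668 CPM). A line whose libraries all lay at or under it was given a lower bound in place of a fold, except for neighbours in the H2 interval, whose fitted values are used. Bounds cover counting error only. Settings tried were DESeq2 1.42.0, limma-voom (limma 3.58.1), other scalings, other filters, a replicate block, glmTreat, leaving out ribosomal RNA locus genes and leaving out each library. The edgeR test alone was checked on simulated counts, in which 200 of 12284 genes were changed. It recovered 194 of them and made 7 false calls. The simulation used a common dispersion and changed far fewer genes than the 77.9% called here, so it does not cover data with this many differences. Replicates of a line differed by more than sampling noise.

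The members, lists and tests were chosen with earlier results of these data known. Genes named were the 10 members, in each other list the 3 with the highest level and those past the threshold with a log2 fold change of at least 2 in either direction, the genes of the ratios, and genes sharing exons or 75-base stretches with a member. Rfxank, Eed, Creb1, Nfyb, Nfyc, Nfkb1, Rela, Irf2, Nfya, Psme1, Psme2, Psmb11, Uggt1, Pdia3, Tapbpl, Erap1, Blmh, Ifnar1, the neighbours in the H2 interval, A930015D03Rik, BC023719 and the genes listed at 0 or at the floor were named after their values were seen, and the motifs were chosen with the windows at hand. Some items are not reported here.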

Additional observations from a re-analysis of the deposited data

How the results depend on the processing

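Over 44 of the named genes, 611 of 646 recomputed values kept their call. Lap3 changed sign with library size as the only scaling (0.048), which moved the median of all genes to 0.16, and the summed heavy chains were then at a log2 ratio of 2.26. Requiring a fold change above 2 (glmTreat) left 4272 genes called, 25 other pathway genes and 14 neighbours in the H2 interval, by construction. DESeq2 called 8 of the 10 members, limma-voom 9 and glmTreat 8, and Tap2 or H2-D1 were those lost. Requiring at least 10 counts in every library left 7 members to test, all of which passed. Leaving out each library in turn gave 9275 to 9572 genes called, 8 to 10 members, 48 to 54 other pathway genes and 34 to 36 neighbours. The ratios then ranged from 6.28 to 6.66 for Psmb8 over Psmb5, from 4.11 to 4.99 for Psmb9 over Psmb6 and from 0.91 to 1.20 for Psmb10 over Psmb7, and the summed heavy chains from 2.06 to 2.12. With the replicate number as a block, 9481 genes were called, and among the 44 genes recomputed Hspa5 lost its call and no other did (adjusted p = 0.0592). Correlations between same-numbered libraries of the lines were 0.012, 0.015 and 0.027, so the numbers were not taken as pairs, although each library correlated best with its own number. Tap2, Psmb8, Psmb9 and Nlrc5 had few counts in J110, which limits the precision of their fold changes. Tap2 and Psmb9 were also uneven between the SSM3 libraries (92, 77 and 13 counts, and 351, 267 and 121). Their SEs, 0.48 and 0.47, were the largest of the members, against 0.17 for Psmb8.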
